A study of Mus musculus with 27 samples.

Results

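The proximal part of mouse chromosome 10, from its start to 46 Mb in build mm8, was examined for loss of DNA in medulloblastoma that had become resistant to a Smoothened antagonist. Its probes were taken by position from comparative genomic hybridization arrays. The array designs held 3803 spots there among 238202 non-control spots, and 3766 distinct probes had values on all 6 arrays, out of 233261 such probes with a position. The region was chosen by its low tumour over liver DNA ratios in the resistant tumours, so these ratios are given as a description and without a test.

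Medulloblastoma tissue of Ptch+/-p53-/- mice, which carry 1 working copy of Ptch and none of p53, was grafted under the skin of nude mice. Resistant tumours came from hosts given NVP-LDE225 at 40, 80 or 160 mg/kg/day in 2 daily doses, with 1 tumour per dose, and the other 3 tumours came from hosts given vehicle. All 6 tumours were taken on day 26 of treatment. The genotype, the graft and the host were common to both groups, and a grafted tumour also contains host cells with normal DNA. Tumour DNA was labelled with Cy5 and hybridized together with Cy3-labelled liver DNA of a wildtype mouse, the same liver sample on every array. The labels of the tumour at 160 mg/kg/day contradict each other, because its title and source name call it vehicle treated while its status, treatment and dose call it resistant and treated. It was placed with the resistant tumours by its status, treatment and dose. The difference between the group means of the region is given with and without it. All other results for the resistant group include this tumour.

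Ptch1 is the receptor that holds the membrane protein Smoothened inactive, and its loss leaves Hedgehog signalling switched on, which drives this type of medulloblastoma in mice. Smoothened antagonists such as LDE225 shrink these tumours until resistant cells grow out. Copy number arrays of this kind compare tumour DNA with normal DNA probe by probe, so a stretch that has lost copies shows as a run of neighbouring probes with low ratios. A log2 ratio of -1 would be found if every cell had lost 1 of 2 copies and the array reported the ratio in full. Values between -1 and 0 do not distinguish a loss present in a share of the tumour cells from a loss in all of them diluted by host DNA. They also varied here with the signal used and with probe brightness, so they are not read as a share of cells.

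The segment carries 350 gene or transcript names on the array and 6 microRNA genes that RefSeq places among those genes. Their 8 mature sequences are shown because they name the small RNA genes whose DNA was or was not lost in each tumour. They are given 5′ to 3′ from RefSeq annotation of GRCm38.p6, with the seed (bases 2 to 8), the part that pairs with target RNAs, in capitals.
mmu-miR-5104: cUGUGCUAgugagguggcucagca
mmu-miR-6413: uGGCUCAGaagagcagguagu
mmu-miR-7663-5p: gCUGCUUGgugaucauccacugu
mmu-miR-7663-3p: aGUGUGGAucauaaggagcucc
mmu-miR-6905-3p: aAAUAACCuuaucugcccgau
mmu-miR-3473b: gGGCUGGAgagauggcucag
mmu-miR-1929-5p: uUCUAGGAcuuuauagagcagag
mmu-miR-1929-3p: cAGCUCAUggagaccuaggugg
The 8 seeds, taken at bases 2 to 8, all differ. The array gives positions in mm8 and the microRNA table in GRCm38.p6, so each microRNA gene was located only by the named genes around it.

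On each array 99.8% to 99.9% of non-control spots were well above background in both channels. Median mean signals lay between 405.6 and 450.6 in Cy5 and between 213.9 and 230.2 in Cy3 on the resistant arrays, against 371.4 to 384.4 and 235.5 to 255.0 on the vehicle arrays. The noise between neighbouring probes of chromosome 10 was 0.32, 0.28 and 0.46 on the log2 scale at 40, 80 and 160 mg/kg/day, against 0.13, 0.19 and 0.17 in vehicle tumours 1, 2 and 3. As a scale within each array, chromosome 6 had a mean log2 ratio of 0.50, 0.47 and 0.51 in the resistant tumours and of 0.48, 0.49 and 0.50 in the vehicle tumours.

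Proximal chromosome 10 was low in all 3 resistant tumours and near the autosomal median in all 3 vehicle tumours. The mean log2 ratio over its 3766 probes was -0.87 at 40 mg/kg/day, -0.45 at 80 mg/kg/day and -0.47 at 160 mg/kg/day, against -0.05, -0.04 and -0.04 in vehicle tumours 1, 2 and 3. The groups did not overlap. The group means were -0.60 ± 0.24 and -0.04 ± 0.01 (SD, n = 3 resistant and 3 vehicle tumours), a difference of -0.55, and the difference was -0.62 without the tumour at 160 mg/kg/day. With the normexp background correction, described further on, the difference was -0.30 and the groups overlapped. The rest of chromosome 10, covered by 7921 probes, had means of -0.03, -0.10 and -0.11 in the resistant tumours and of -0.01 in each vehicle tumour.

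The loss was long and continuous at 40 mg/kg/day and shorter and broken at the other doses. Segments were called lost when the mean log2 ratio over at least 5 neighbouring probes was -0.3 or lower. The called loss at 40 mg/kg/day was a single stretch of 42.6 Mb, or 99.1% of the covered length. At 80 mg/kg/day 3 called stretches summed to 29.1 Mb, or 67.6%, and at 160 mg/kg/day 2 called stretches summed to 29.1 Mb, or 67.7%. No loss was called in a vehicle tumour. With normexp and the same limit of -0.3 the called length was 0 Mb at 80 mg/kg/day, against 42.6 Mb at 40 and 29.0 Mb at 160 mg/kg/day.

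Windows of 1 Mb showed the same difference in extent. All 43 windows were at or below -0.3 at 40 mg/kg/day, where 2.8% of autosomal windows were. At 80 mg/kg/day 29 of the 43 windows were that low, against 5.84% of autosomal windows, and at 160 mg/kg/day also 29, against 8.64%. In 29 windows all 3 resistant tumours were at or below -0.3, against 2.13% of the 2396 autosomal windows, and none was that low in vehicle tumours 1, 2 and 3, where 1.09%, 1% and 1.29% of autosomal windows were. The 3 resistant tumours were all below the 3 vehicle tumours in 31 windows, against 20.5% of autosomal windows. The autosomal windows include the 43 windows of the region itself. Since the region was chosen for low ratios, these counts describe its extent only.

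**Figure D1:**
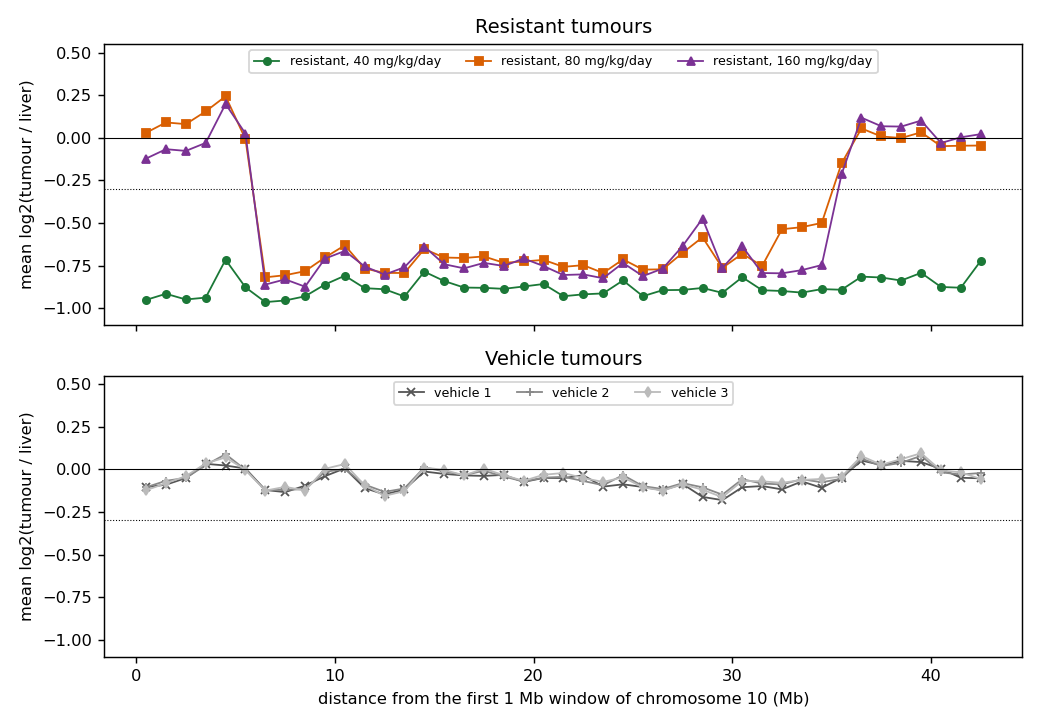
Mean log2 ratio of tumour over liver DNA in each of the 43 windows of 1 Mb, in order along proximal chromosome 10, with the 3 resistant tumours in the upper panel and the 3 vehicle tumours in the lower panel. The dotted line marks -0.3. The tumour at 40 mg/kg/day is low throughout, the tumours at 80 and 160 mg/kg/day are low in 29 windows, and the vehicle tumours stay between -0.18 and 0.09.

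The ends of the called losses divided the region into 7 stretches. The first, chr10:3002742-8973717 with 563 probes, was lost at 40 mg/kg/day alone. Its mean log2 ratio was -0.90 at 40, 0.10 at 80 and -0.02 at 160 mg/kg/day, against -0.03, -0.02 and -0.03 in vehicle tumours 1, 2 and 3. The genes here include Esr1, Syne1, Akap12 and Sash1. The DNA around mmu-miR-5104, measured by 6 probes of Zc3h12d, had a mean of -0.93, 0.12 and -0.15 at 40, 80 and 160 mg/kg/day, against 0.12, 0.07 and 0.06 in the vehicle tumours.

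The second and longest stretch, chr10:8987090-30864007, was lost in all 3 resistant tumours. It spans 21.9 Mb with 1928 probes and 170 gene names. Its mean log2 ratio was -0.88, -0.74 and -0.76 at 40, 80 and 160 mg/kg/day, against -0.07, -0.06 and -0.05 in the vehicle tumours. These means correspond to tumour over liver ratios of 0.542, 0.601 and 0.590, against 0.955, 0.960 and 0.965. The groups did not overlap, and the tumour at 40 mg/kg/day was the lowest. It holds the DNA around mmu-miR-6413, both arms of mmu-miR-7663 and mmu-miR-6905-3p, whose surrounding probes averaged between -0.87 and -0.58 in the resistant tumours and between -0.05 and 0.03 in the vehicle tumours.

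The third stretch, chr10:30872107-31330288, was kept at 80 and 160 mg/kg/day although both of its neighbours were lost there. It is 0.458 Mb long and was covered by 48 probes. Its mean log2 ratio was -0.81 at 40, -0.17 at 80 and 0.14 at 160 mg/kg/day, against -0.12, -0.04 and -0.06 in vehicle tumours 1, 2 and 3. The tumour at 40 mg/kg/day lay far below the vehicle range, that at 80 mg/kg/day slightly below it and that at 160 mg/kg/day above it. At 160 mg/kg/day the call depended on the segmentation penalty. With 5 times in place of 3 times, the called loss at that dose ran across the third stretch. That loss then had 2 ends and measured 29.6 Mb. The kept stretch holds the genes Hddc2, which codes for a protein with an HD domain, and Tpd52l1, a member of the tumour protein D52 family.

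The fourth stretch, chr10:31346398-34621408 with 313 probes, was lost in all 3 resistant tumours, averaging -0.88 at 40, -0.75 at 80 and -0.74 at 160 mg/kg/day against -0.14, -0.11 and -0.11 in the vehicle tumours. The fifth, chr10:34646531-38545777 with 162 probes, had means of -0.90, -0.51 and -0.76 against -0.09, -0.08 and -0.07. At 80 mg/kg/day the loss was thus less deep in the fifth stretch than in the fourth, while at 40 and 160 mg/kg/day it was slightly deeper.

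The sixth stretch, chr10:38566027-45612178 with 740 probes and 97 gene names, was again lost at 40 mg/kg/day alone. Its mean was -0.83, 0.00 and 0.06 at 40, 80 and 160 mg/kg/day, against 0.02, 0.03 and 0.04 in the vehicle tumours. It holds mmu-miR-3473b and both arms of mmu-miR-1929, whose gene is inside Atg5. The last stretch, chr10:45648420-45987865 with 12 probes, was kept in every tumour, with means between -0.13 and -0.08 in the resistant tumours and between -0.18 and -0.14 in the vehicle tumours.

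**Figure D2:**
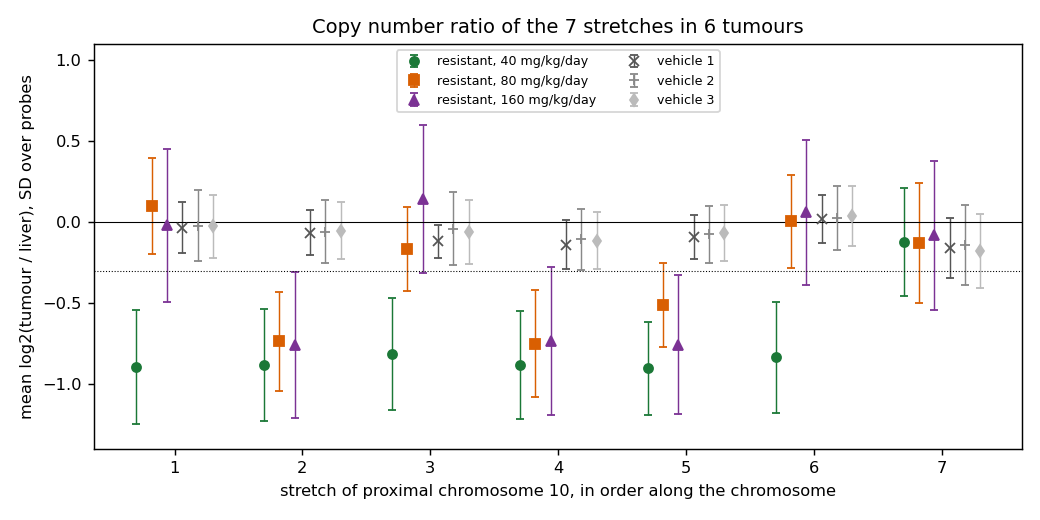
Mean log2 ratio of tumour over liver DNA in the 7 stretches in each of the 6 tumours, with bars of 1 SD over probes and a dotted line at -0.3. Stretches 2, 4 and 5 lie below the line in all 3 resistant tumours, stretches 1, 3 and 6 only at 40 mg/kg/day, and stretch 7 in none.

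The losses at 80 and 160 mg/kg/day began and ended at nearly the same probes. At 80 mg/kg/day 5 ends of called losses fell inside the region and at 160 mg/kg/day 4, and all 4 lay within 2 probes of an end at 80 mg/kg/day. The loss at 40 mg/kg/day had 1 end in the region, which was near none of these. The vehicle tumours had no such end. With normexp there were 0 ends at 80 mg/kg/day and so 0 shared, and with a segmentation penalty of 5 times in place of 3 times 2 ends were shared. The ends at 80 mg/kg/day described next are those with processed signals.

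The first shared end lay between probes at 8973717 and 8987090, 13.4 kb apart. Relative to the mean of the vehicle tumours, the 25 probes after it were lower than the 25 before it by -0.50 ± 0.06 (SE over probes) at 80 mg/kg/day and by -0.75 ± 0.10 at 160 mg/kg/day. At 40 mg/kg/day this step was 0.00 ± 0.06, and in vehicle tumours 1, 2 and 3, each set against the mean of the others, it was -0.02, 0.00 and 0.02. The single-step positions within the 95% likelihood range spanned 27.1 kb at 80 and 42.5 kb at 160 mg/kg/day. No named gene was measured at the step itself. The nearest names on the array, AK140985 and AK040151, are transcript accessions.

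The second shared end lay between probes at 30864007 and 30872107, where 1 position alone, 8.10 kb wide, was within the likelihood range in both tumours. The step was 0.57 ± 0.06 at 80 mg/kg/day and 0.97 ± 0.10 at 160 mg/kg/day, against 0.10 ± 0.07 at 40 mg/kg/day and -0.13, 0.08 and 0.05 in the vehicle tumours. It lies between Hey2, on the lost side, and Hddc2, on the kept side. Hey2 codes for a transcriptional repressor that acts downstream of Notch.

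The third shared end closes the kept stretch. It was called between 31330288 and 31346398 at 80 mg/kg/day and 1 probe earlier, between 31318403 and 31330229, at 160 mg/kg/day. The likelihood range, taken with the vehicle mean subtracted, ran from 31346457 to 31365485 at 80 and from 31318403 to 31365485 at 160 mg/kg/day. The ranges overlap, and the best position was between 31346457 and 31365485 in both tumours. The end called at 80 mg/kg/day lies just before its own range. The step was -0.55 ± 0.06 at 80 and -0.80 ± 0.10 at 160 mg/kg/day, against -0.06 ± 0.07 at 40 mg/kg/day and 0.03, -0.01 and -0.02 in the vehicle tumours. The next gene on the lost side is Nkain2, named Tcba1 on the array, which codes for a membrane protein that interacts with the sodium-potassium pump.

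The fourth shared end lay between probes at 38545777 and 38566027. The step there was 0.55 ± 0.11 at 80 and 0.84 ± 0.11 at 160 mg/kg/day, against 0.03 ± 0.06 at 40 mg/kg/day and -0.10, 0.04 and 0.06 in the vehicle tumours. A lone probe of Lama4 with a log2 ratio of 2.32 lies just beyond this end at 80 mg/kg/day and contributes to its step and SE.

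The remaining ends belonged to 1 tumour each. Between 34621408 and 34646531, distal to the Src-family kinase gene Frk, the ratio at 80 mg/kg/day stepped up by 0.29 ± 0.06, against 0.09 ± 0.09 at 160 mg/kg/day, 0.01 ± 0.06 at 40 mg/kg/day and -0.05, 0.02 and 0.03 in the vehicle tumours. Between 45612178 and 45648420 the ratio at 40 mg/kg/day stepped up by 0.83 ± 0.05, against 0.00 ± 0.05 at 80 and -0.05 ± 0.08 at 160 mg/kg/day and 0.01, -0.01 and 0.00 in the vehicle tumours. The nearest names on the array, AK080062 and AK145751, are transcript accessions.

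**Figure D3:**
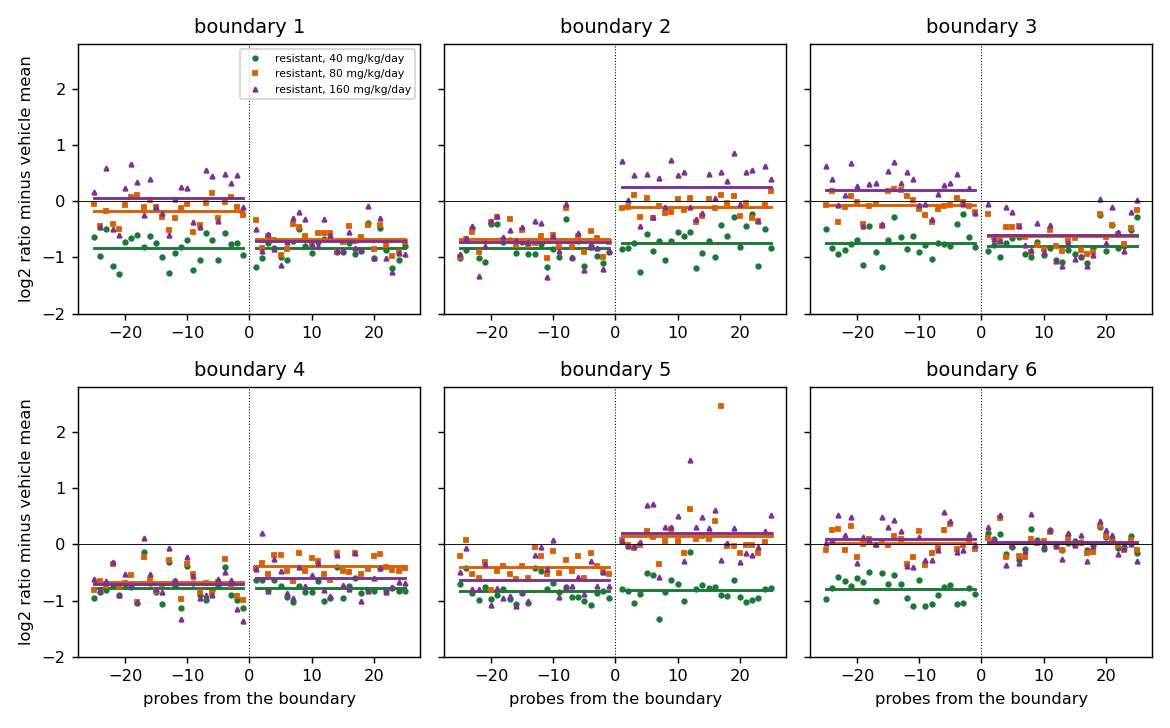
Log2 ratio minus the mean of the vehicle tumours for the 25 probes on each side of the 6 boundaries, in the 3 resistant tumours, with horizontal lines at the mean of each side. The tumours at 80 and 160 mg/kg/day step together at boundaries 1, 2, 3 and 5, the tumour at 80 mg/kg/day alone has a smaller step at boundary 4, and the tumour at 40 mg/kg/day steps at boundary 6.

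Sharing of steps between the tumours at 80 and 160 mg/kg/day was also present elsewhere on the autosomes, a count that includes the rest of chromosome 10. With the vehicle mean subtracted, and steps of at least 0.3 counted between segments of at least 5 probes, each of these tumours had 23 steps elsewhere on the autosomes, of which 10, or 43.5%, lay within 2 probes of a step in the other tumour. Inside proximal chromosome 10 the count was 4 of 5 at 80 and 4 of 4 at 160 mg/kg/day. The tumour at 40 mg/kg/day had 1 step in the region and 5 elsewhere, and none was shared with another tumour. The vehicle tumours had 0 such steps, and segments of fewer probes, which occurred in them too, were not counted.

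With the vehicle mean subtracted, the tumour at 80 mg/kg/day showed intermediate levels that the tumour at 160 mg/kg/day did not. It stood 0.15 above the vehicle mean up to 8476620, 0.19 below it (-0.19) from 8482063 to 8987149 and -0.68 after that. The first of these steps falls inside Sash1, which codes for an adaptor protein of growth and cell death signalling. At 160 mg/kg/day the corresponding levels were 0.01 up to 8973717 and -0.70 after it, with 1 step. The kept stretch stood at -0.10 at 80 and 0.21 at 160 mg/kg/day relative to vehicle.

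The depth of the second stretch varied little along its length. Across 22 windows of the second stretch, each with at least 20 probes, the difference from the vehicle mean ranged from -0.89 to -0.74 at 40, from -0.72 to -0.64 at 80 and from -0.77 to -0.64 at 160 mg/kg/day. The rise and fall of these windows along the stretch followed the vehicle tumours, with correlations across windows of 0.72, 0.92 and 0.71 (Pearson r, n = 22 windows that share the liver DNA and the probes). The shorter stretches had 4 such windows each. In the fourth the differences ranged from -0.82 to -0.74 at 40, from -0.73 to -0.60 at 80 and from -0.74 to -0.56 at 160 mg/kg/day. The 4 windows thus differed more in the tumours at 80 and 160 mg/kg/day, with 1 tumour per dose. In the fifth they ranged from -0.84 to -0.80, from -0.46 to -0.40 and from -0.71 to -0.64. Correlations with the vehicle windows were lower at 80 and 160 mg/kg/day in these stretches, at 0.37 and 0.36 in the fourth and at -0.07 and -0.16 in the fifth (Pearson r, n = 4 windows). No 2 neighbouring probes of the region were both 1.5 or more below the vehicle mean in any tumour. Such single probes numbered 6, 1 and 10 of 3766 at 40, 80 and 160 mg/kg/day, against 0 in each vehicle tumour. The share over all autosomal probes was not counted. Both the low mean of the region and the noise of each array enter such counts.

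A few lone probes stood far above their neighbours in 1 tumour each. A probe of AK139076 at 18487676 had a log2 ratio of 3.60 at 40 mg/kg/day, where the median of the probes around it was -0.87. A probe of Atg5 at 43992061 had a ratio of 1.57 at 160 mg/kg/day, where the median around it was 0.03. In vehicle tumour 1 an unnamed probe at 8819809 had a ratio of 1.51, so such probes occurred in both groups.

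The low ratios came from the tumour channel. In the second stretch the Cy5 signal, centred on the autosomal median of its array, was -0.82, -0.67 and -0.69 relative to the vehicle tumours at 40, 80 and 160 mg/kg/day. The Cy3 signal of the liver DNA differed by 0.00 in each of the 3.

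Loss of the named genes followed the stretches. Of 195 names with at least 3 probes, 195 had a mean log2 ratio of -0.3 or lower at 40 mg/kg/day, where 4.93% of autosomal names did. The count was 111 at 80 mg/kg/day, against 6.75% of autosomal names, and 111 at 160 mg/kg/day, against 12.3%. It was 110 in all 3 resistant tumours at once, against 2.91% of autosomal names. It was 83 at 40 mg/kg/day alone, for which no autosomal share was counted. In 129 of the 195 all 3 resistant tumours were below all 3 vehicle tumours, against 26.8% of autosomal names. In vehicle tumours 1, 2 and 3 the count was 0, 2 and 2, against 1.28%, 1.46% and 1.54% of autosomal names. The autosomal names include those of the region itself.

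Of 43 genes listed by role, 41 had probes under their name, and Lats1 and Col10a1 had none. All 41 were at or below -0.3 at 40 mg/kg/day, and 23 were so at both 80 and 160 mg/kg/day. None was that low in a vehicle tumour. These 23 are 56.1% of the listed genes, and 111 of the region's 195 names with at least 3 probes, or 56.9%, were that low at each of these doses, so the counts by role below give the positions of the genes and nothing particular to a role. The medians over the 41 genes were -0.85, -0.35 and -0.44 at 40, 80 and 160 mg/kg/day, against -0.03, 0.00 and 0.00 in vehicle tumours 1, 2 and 3.

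Among p53 targets and stress genes, 4 of 6 were low in all 3 resistant tumours. Plagl1, an imprinted zinc finger gene linked to cell cycle arrest, had means over 6 probes of -1.02, -0.89 and -0.99 at 40, 80 and 160 mg/kg/day, against -0.04, -0.05 and -0.07 in the vehicle tumours. Perp, a p53 target that codes for a membrane protein of cell junctions and cell death, had means of -0.79, -0.59 and -0.61 against 0.09, -0.01 and 0.06. Tnfaip3, an inhibitor of NF-kB signalling, had means of -0.50, -0.33 and -0.41 over 2 probes, against 0.12, 0.32 and 0.13. The groups did not overlap for these genes.

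The other members of that list lay in the sixth stretch or rested on 1 probe. Sesn1, a p53 target that restrains growth signalling, had means of -1.07, -0.17 and -0.28 over 3 probes at 40, 80 and 160 mg/kg/day, against 0.01, 0.00 and -0.04 in the vehicle tumours. Foxo3, named Foxo3a on the array and a transcription factor of stress responses, had means of -0.83, 0.03 and 0.09 over 11 probes, against 0.12, 0.07 and 0.05. Sgk1, a stress-induced kinase gene named Sgk on the array, rested on 1 probe of the second stretch with ratios of -1.09, -1.05 and -1.15, against -0.01, -0.14 and 0.00.

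Among growth control genes, 1 of 5 with probes was low in all 3 resistant tumours. It was Ptprk, a receptor tyrosine phosphatase gene, with means over 67 probes of -0.91, -0.77 and -0.79 at 40, 80 and 160 mg/kg/day, against -0.10, -0.07 and -0.09 in the vehicle tumours. Hace1, a ubiquitin ligase gene, had means of -0.71, 0.06 and 0.23 over 16 probes, against -0.06, -0.02 and -0.03. Prdm1, a transcriptional repressor of lymphocyte differentiation, had means of -0.53, 0.08 and 0.11, and Akap12, a scaffold for protein kinases, had means of -0.91, 0.19 and 0.04. Vehicle means for these 2 genes were 0.13 ± 0.04 and 0.08 ± 0.03 (SD, n = 3).

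Among transcription and chromatin genes, 7 of 10 were low in all 3 resistant tumours. Myb, the proto-oncogene of blood progenitors, had means over 6 probes of -1.03, -0.68 and -0.92 at 40, 80 and 160 mg/kg/day, against -0.06, 0.01 and -0.02 in the vehicle tumours. Hivep2, a zinc finger gene, had means of -0.79, -0.63 and -0.64 over 28 probes, against -0.03, 0.00 and 0.04. L3mbtl3, which codes for a reader of histone methylation, had means of -0.86, -0.69 and -0.78 over 12 probes, against 0.04, -0.05 and -0.02. Hdac2, a histone deacetylase gene of the fifth stretch, had means of -0.76, -0.48 and -0.67 over 4 probes, against 0.04, 0.00 and 0.00.

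Esr1, Nr2e1 and Lin28b were low at 40 mg/kg/day alone. Esr1, the estrogen receptor alpha gene, had means over 48 probes of -0.94, 0.08 and -0.07 at 40, 80 and 160 mg/kg/day, against -0.07, -0.08 and -0.04 in the vehicle tumours. Lin28b, an inhibitor of let-7 microRNA maturation, had means of -0.77, 0.01 and 0.10 over 13 probes, against 0.04, 0.12 and 0.03. Nr2e1, an orphan nuclear receptor gene of neural stem cells, had means of -0.57, 0.26 and 0.43 over 4 probes, against 0.17, 0.28 and 0.15.

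Among kinases and signalling genes, 5 of 8 were low in all 3 resistant tumours. Rspo3, a secreted enhancer of Wnt signalling, had means over 12 probes of -0.96, -0.86 and -0.84 at 40, 80 and 160 mg/kg/day, against -0.14, -0.18 and -0.15 in the vehicle tumours. Enpp1, an ectoenzyme of nucleotide and phosphate metabolism, had means of -1.08, -0.85 and -0.96 over 10 probes, against -0.12, -0.16 and -0.01. Frk had means of -0.91, -0.82 and -0.80 over 16 probes, against -0.12, -0.06 and -0.08. Fyn, another Src-family kinase gene but of the sixth stretch, had means of -0.91, -0.01 and -0.03 over 24 probes, against 0.03, 0.04 and 0.10.

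The extracellular matrix pair of laminin genes was split by the end of the fifth stretch. Lama2, the laminin alpha-2 chain gene, had means over 70 probes of -0.92, -0.82 and -0.84 at 40, 80 and 160 mg/kg/day, against -0.14, -0.12 and -0.12 in the vehicle tumours. Lama4 had means of -0.85, 0.16 and 0.16 over 18 probes, against -0.06, -0.02 and -0.02. The value of Lama4 at 80 mg/kg/day includes the lone high probe described above.

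Of the DNA repair, autophagy and lipid kinase partner genes, 1 of 4 was low in all 3 resistant tumours. Shprh, a ubiquitin ligase gene of DNA damage tolerance, had means over 6 probes of -0.80, -0.60 and -0.68 at 40, 80 and 160 mg/kg/day, against -0.11, -0.04 and 0.01 in the vehicle tumours. Rev3l, which codes for the catalytic subunit of a translesion polymerase, had means of -0.72, 0.16 and 0.30 over 21 probes, against 0.12, 0.11 and 0.10. Atg5, needed for autophagosome formation, had means of -0.92, -0.09 and 0.04 over 13 probes, against -0.06, -0.05 and -0.05.

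Among neural and cytoskeletal genes, 4 of 6 were low in all 3 resistant tumours. Nkain2 had means over 129 probes of -0.93, -0.79 and -0.79 at 40, 80 and 160 mg/kg/day, against -0.18, -0.15 and -0.16 in the vehicle tumours. Utrn, the utrophin gene, had means of -0.87, -0.71 and -0.70 over 67 probes, against -0.06, -0.03 and -0.01. Marcks, an actin-binding substrate of protein kinase C, had means of -1.04, -0.35 and -0.78 over 2 probes of the fifth stretch, against -0.07, -0.03 and 0.05. Syne1, a nuclear envelope linker gene of the first stretch, had means of -1.03, 0.02 and -0.15 over 41 probes, against -0.08, -0.12 and -0.11.

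The other listed genes with probes followed their stretches too. Tcf21, Eya4, Ctgf, Ifngr1 and Ahi1, all of the second stretch, had means between -1.20 and -0.31 in the resistant tumours, against -0.10 to 0.14 in the vehicle tumours. Tcf21 and Ctgf rested on 1 probe each, and the value of -1.20 is that of Ctgf at 40 mg/kg/day. Cdk19, Traf3ip2, Fig4 and Wasf1, of the sixth stretch, had means between -0.85 and -0.67 at 40 mg/kg/day and between 0.00 and 0.31 at 80 and 160 mg/kg/day, against -0.03 to 0.15 in the vehicle tumours.

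The genes on each side of the kept stretch show its position. Ncoa7, a nuclear receptor coactivator gene before it, had means over 21 probes of -0.97, -0.80 and -0.85 at 40, 80 and 160 mg/kg/day, against -0.09, -0.11 and -0.11 in the vehicle tumours. Hey2 had means of -0.65, -0.68 and -0.44 over 2 probes, against -0.16, 0.05 and 0.00. Hddc2, inside it, had means of -0.73, -0.03 and 0.24 over 4 probes, against -0.10, 0.12 and 0.07. Tpd52l1, also inside it, had means of -0.74, -0.15 and 0.24 over 15 probes, against -0.11, -0.01 and 0.00. At 80 mg/kg/day both genes were thus lower than at 160 mg/kg/day, and Tpd52l1 lay below each vehicle tumour. The other names inside it were lower. The transcript AK182621 had means of -1.17, -0.52 and -0.41 over 3 probes, against -0.22, -0.32 and -0.26, and the single probe of AK137656 had ratios of -1.43, -0.70 and -0.66, against -0.14, -0.34 and -0.31. In each resistant tumour both transcripts lay below every vehicle tumour, and the mean of the kept stretch includes their probes. These gene means were not adjusted for probe brightness. From the dimmest to the brightest of 4 classes of probes by liver signal, the autosomal median went from 0.52 to -0.44 at 160 mg/kg/day. At 80 mg/kg/day it went from 0.27 to -0.26. Differences between these genes or doses therefore include any such effect.

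**Figure D4:**
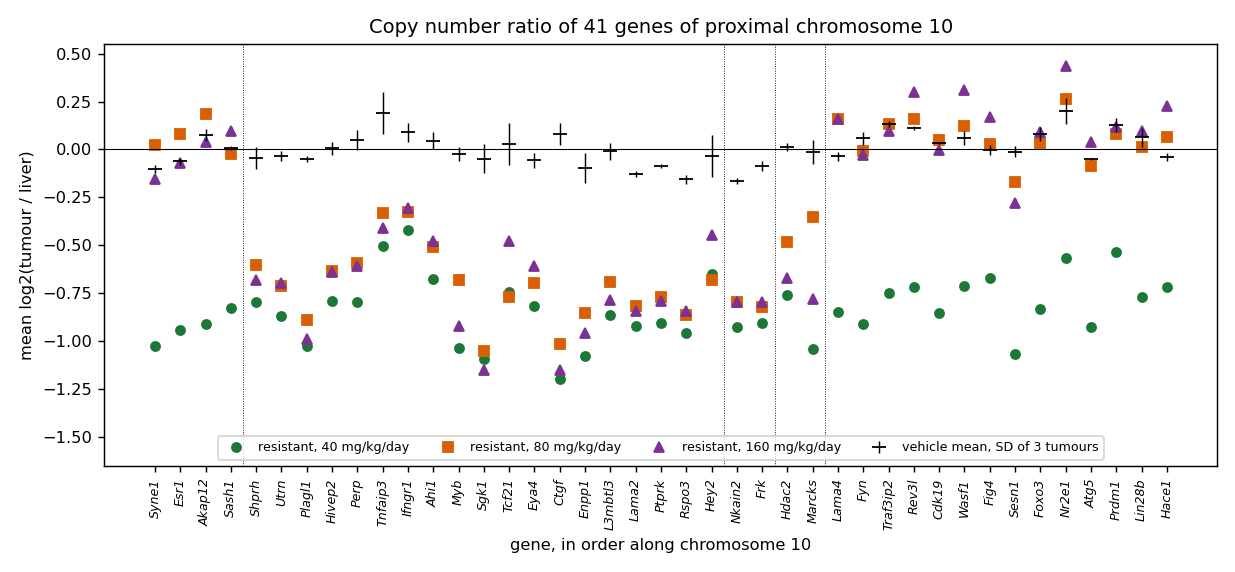
Mean log2 ratio over the probes of each of 41 genes, in order along proximal chromosome 10, for the 3 resistant tumours and for the mean of the vehicle tumours with bars of 1 SD over 3 tumours. Dotted lines part genes of different stretches. All 41 genes are at or below -0.3 at 40 mg/kg/day, and the 23 genes of the middle stretches are so at 80 and 160 mg/kg/day as well.

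The loss at 80 mg/kg/day depended on how background was handled. With mean signals minus the local background medians, the region's mean log2 ratio was -0.85, -0.43 and -0.47 at 40, 80 and 160 mg/kg/day, against -0.06, -0.05 and -0.04 in the vehicle tumours, and without any background subtraction it was -0.69, -0.35 and -0.40, against -0.04 in each vehicle tumour. With the normexp correction, which models background and signal as a sum of distributions, it was -0.56, -0.08 and -0.49, against -0.06, -0.11 and -0.06, so that the tumour at 80 mg/kg/day lay within the vehicle range.

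Normexp also made the ratios of other segments of the array at 80 mg/kg/day smaller in size, though not to the same extent. The chromosome 6 mean there was 0.20 with normexp and 0.47 with processed signals, and the chromosome X mean was -0.13 and -0.68. The corrected Cy3 median on that array was 314.0 with normexp and 188.6 with plain subtraction, where the other 5 arrays had 167.1 to 220.1 with normexp and 172.9 to 213.7 with subtraction. Relative to the chromosome 6 gain of the same array, the region at 80 mg/kg/day stood at -0.95 times that gain with processed signals, at -0.96 with subtracted mean signals and at -0.39 with normexp. At 40 mg/kg/day the region moved from -0.87 with processed signals to -0.56 with normexp. The chromosome 6 mean on that array moved from 0.50 to 0.45.

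**Figure D5:**
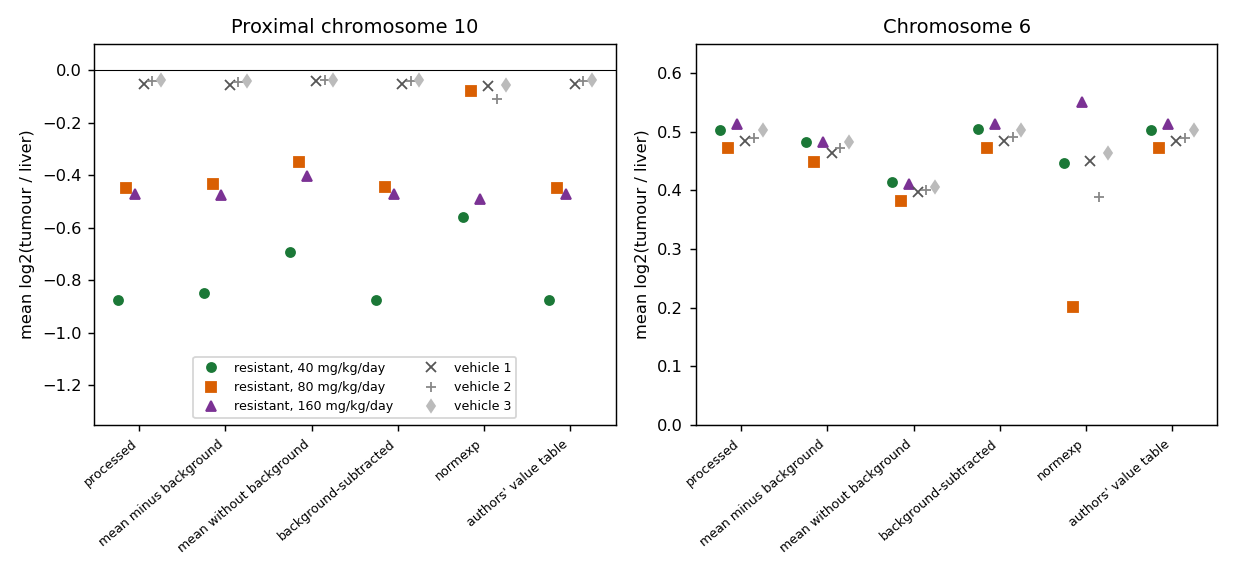
Mean log2 ratio of proximal chromosome 10 (left) and of chromosome 6 (right) in the 6 tumours under 6 ways of taking the signal. At 80 mg/kg/day the region is at -0.45 with processed signals and at -0.08 with normexp, and chromosome 6 on that array is at 0.47 and 0.20.

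The ratios also varied with probe brightness. In the dimmest to the brightest of 4 classes of probes by their liver signal, the region's mean was -0.56, -0.81, -0.97 and -1.16 at 40, -0.17, -0.38, -0.54 and -0.69 at 80 and 0.01, -0.35, -0.63 and -0.92 at 160 mg/kg/day. Vehicle tumour 1 was flat over the classes, between -0.06 and -0.04, and vehicle tumours 2 and 3 fell by class, to -0.20 and -0.16 in the brightest. The autosomal medians of the same classes moved alike. Relative to those medians, the region's mean lay between -0.90 and -0.86 at 40, between -0.47 and -0.44 at 80 and between -0.51 and -0.48 at 160 mg/kg/day, against -0.06 to -0.04 in the vehicle tumours.

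The loss was similar in all parts of the array and in named and unnamed probes. Over 4 quadrants of the array the means ranged from -0.89 to -0.86 at 40, from -0.47 to -0.42 at 80 and from -0.50 to -0.45 at 160 mg/kg/day. Probes with a gene or transcript name averaged -0.87, -0.44 and -0.46 at these doses and probes without one -0.87, -0.45 and -0.49, against -0.05, -0.04 and -0.04 for named and -0.06, -0.04 and -0.04 for unnamed probes in the vehicle tumours.

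The 46 Mb limit lies shortly beyond the end of the loss at 40 mg/kg/day. The last 20 probes inside it averaged -0.47 at 40, -0.10 at 80 and -0.06 at 160 mg/kg/day, against -0.16, -0.10 and -0.14 in the vehicle tumours. The first 20 probes outside it had means of -0.19, -0.21 and -0.21, against -0.23, -0.21 and -0.24. Positions are those of mm8, in which the first 19 genes matched to RefSeq, from Cnksr3 to 9230019H11Rik, run in the opposite order from GRCm38.p6. These genes lie inside the first stretch.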

How the data were processed

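DNA of 6 tumours was measured on 2-colour Agilent comparative genomic hybridization arrays, and the number of arrays limits the precision. The deposited intensities are scanner output of Agilent Feature Extraction 9.5.3.1 with mm8 positions, per the file headers. In them the processed intensities already had background and dye effects corrected. The authors' value table holds log10 ratios in the same direction and was converted to log2 as an alternative. Control spots and outliers were left out, probes of 1 name averaged, and the log2 of Cy5 over Cy3 was set to an autosomal median of 0 on every array. Neither loess nor quantile normalization was applied. Segments of chromosome 10 minimised squared error plus, for each breakpoint, 3 times 2 x variance x log n. The segmentation was also run on simulated profiles with independent noise. These lack the lone probes and shared probe effects of the arrays, and no conclusion is drawn from them. Boundary steps used 25 probes on each side. SDs and SEs over probes cover probe noise, not tumours.

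The region, gene lists and roles were chosen with earlier results of these data known, so no p-value is given. Genes were named by a fixed list of roles plus those flanking segment ends. A gene originally in that list was taken out and is not reported here. Names come from the files, and 175 of 350 matched the GRCm38.p6 table. RNA of the series was not used, because the tables here do not pair its probe sets with genes. The arrays lie on separate slides. Software was Python 3.11.15, numpy 2.4.6, pandas 2.3.3, numba 0.67.0, scipy 1.17.1, R 4.3.3 and limma 3.58.1 (normexp, offset 50).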

Additional observations from a re-analysis of the deposited data

How the results depend on the processing

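With 1 tumour per dose, results were compared with the spread among the 3 resistant tumours (0.239 on the log2 scale) or among the vehicle tumours (0.0084). With normexp the region's mean was -0.56 at 40 and -0.0782 at 80 mg/kg/day, and -0.0751 for the vehicle mean. With it 0 loss ends, against 4, were shared at 80 and 160 mg/kg/day, and 0 listed genes, against 23, were at or below -0.3 at 80 mg/kg/day. Resistant minus vehicle was then -0.30, and at 80 mg/kg/day the called length was 0 Mb and 0% of windows were at or below -0.3. The cause of these moves was not tested. The limit of -0.3 was kept as it was for normexp, so its counts of 0 do not show whether the steps were absent. The dimmest Cy3 class gave -0.56, -0.17 and 0.0119 at 40, 80 and 160 mg/kg/day, the last with its sign reversed, and the brightest -1.16, -0.69 and -0.92. The vehicle mean over the 4 classes, dimmest first, was 0.0457, -0.0184, -0.0686 and -0.13. It was -0.0278 when centring left out chromosomes 6, 10 and 16 and -0.0275 relative to the rest of chromosome 10. With a penalty of 5 times, 2 ends were shared, and the called loss at 160 mg/kg/day ran across the third stretch. Resistant minus vehicle ranged from -0.63 to -0.42 when each tumour was left out in turn. Of 138 values under other settings, 117 moved by less than the spread or within 1.5 times for counts, or stayed at 0 in vehicle tumours. Among these were called lengths under thresholds of -0.2 and -0.4, other penalties and mean signals minus background. The shares of 0.5 and 2 Mb windows were too, but not the called length at 80 mg/kg/day with normexp. The resistant spread, 7.82 Mb for called lengths, includes the differences between these tumours. A move from -0.87 to -0.69 at 40 mg/kg/day without background subtraction therefore counted as within it, so the 117 do not measure how firm the results are. Several settings were chosen after seeing the data. They were centring within 20 Cy3 classes, subtracting the vehicle mean and counting steps elsewhere on the autosomes. Normexp for the group difference, called lengths and windows was also among them, as were the other settings for shared ends and listed genes. No paired analysis was possible because the resistant DNA tumours carry no replicate number. The RNA comparisons and their settings were not run. The higher noise at 160 mg/kg/day limits what short stretches can show there.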
